A study of Caenorhabditis elegans with 3 samples.

Results

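The dafachronic acid hormone pathway of the nematode Caenorhabditis elegans was followed through 6 genes chosen by symbol: daf-36, dhs-16, hsd-1 and daf-9 of hormone synthesis, the receptor gene daf-12 and the co-repressor gene din-1. All 6 had a value on all 3 arrays and are 6 of the 15143 genes tested. Hermaphrodites late in the third larval stage (late L3), labelled TP02, gave RNA in 3 preparations (preps 1, 2 and 3). Each prep was hybridised on its own 2-colour array against a wild-type (wt) mixed reference. The labels do not explain TP02 or give strain, food, temperature, age in hours or the stages and sexes pooled in the reference. Nothing states that the preps came from separate cultures, so p-values speak for these 3 preps only. Part of the variation among the preps may be technical, and the test takes a gene's spread mainly from all genes.

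Dafachronic acids are bile acid-like steroid hormones that the worm makes from dietary cholesterol. In favourable conditions they bind the nuclear receptor DAF-12, and larvae go on through the third stage to reproductive adulthood. Without hormone, DAF-12 acts with its co-repressor DIN-1 and the larva enters the long-lived dauer stage. The same receptor also times the passage from second-stage to third-stage cell fates and the migration of the gonad. Hormone synthesis is known from a pair of head cells called the XXX cells, from the epidermis and from the intestine.

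The values are the deposited log2 ratios of the 2 channels, each array centred on its median, so 0 is the median probe and 1 is a 2-fold difference. Late L3 over reference is the likely direction, read from the order of words in the sample descriptions; the numerator of the ratio is not stated. The oocyte yolk receptor gene rme-2, an adult transcript, stood at -2.63, -2.11 and -2.76 in preps 1, 2 and 3. Of the 11 tested germ line markers, rme-2 among them, 3 were called lower and 4 higher, such as glh-1 at a mean of 2.08. The direction of the ratio was not tested. Of all genes, 11.4% were called higher and 11.9% lower, 23.3% together, by limma at a Benjamini-Hochberg adjusted p under 0.05, and the median gene was at -0.0023. Ratios were less spread in prep 3, with a scaled median absolute deviation of 0.394, against 0.689 and 0.771 in preps 1 and 2. A log2 ratio gives no level, and in whole larvae fewer cells of a type and less RNA per cell cannot be told apart.

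The first and the last enzyme of hormone synthesis were higher in late L3 larvae than in the mixed reference, while the receptor, the co-repressor and both dehydrogenases did not pass the test. Of the 6 genes, 2 were higher and 0 lower, where 11.4% of all genes were called higher, 11.9% lower and 23.3% in either direction. The higher genes were daf-36 at 1.51 ± 0.49 and daf-9 at 1.10 ± 0.40 on the log2 scale (SD, n = 3). The median of the 6 means was 0.54. With so few genes, the count describes these 6 and not a shift of the pathway.

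**Figure D1:**
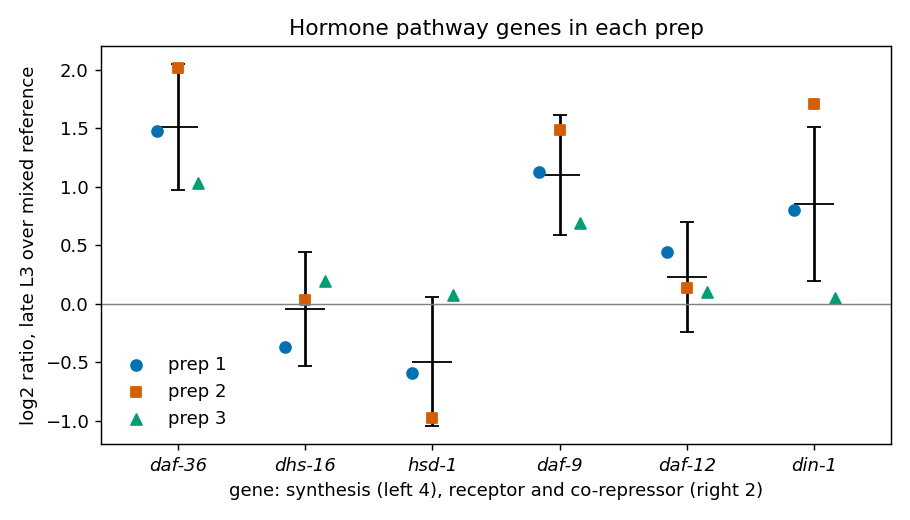
Log2 ratio of each gene (vertical axis, late L3 over mixed reference, array median at 0) in preps 1, 2 and 3; black bars are the mean and its 95% confidence interval from limma. The daf-36 and daf-9 points are above 0 in every prep with intervals clear of 0, and the din-1 points run between 0.05 and 1.70.

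The gene daf-36 (chromosome V) encodes a Rieske-type oxygenase that starts the route by oxidising cholesterol to a dehydrocholesterol. Its log2 ratio was 1.48, 2.02 and 1.03 in preps 1, 2 and 3. All preps were high, with prep 2 highest and prep 3 lowest. The mean was 2.85-fold above the reference, with a 95% confidence interval of 0.97 to 2.05 on the log2 scale (limma adjusted p = 0.00156). Within each array daf-36 stood at the percentiles 96.4, 97.3 and 94.6 of all genes tested, and 431 genes had a higher mean. Its call was kept when any prep was left out, with limma adjusted p-values between 1.511e-05 and 0.0227. On all 3 arrays, and more so with a prep left out, limma takes a gene's spread mainly from all genes. These p-values and the interval therefore say little about how closely the daf-36 values of the preps matched.

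The gene daf-9 (X) encodes the cytochrome P450 that oxidises the sterol side chain in the last step and so makes the active hormone. It had log2 ratios of 1.13, 1.48 and 0.69 in preps 1, 2 and 3. Again each prep was above the median, in the same order as for daf-36. The mean was 2.14-fold above the reference, with an interval of 0.59 to 1.61 on the log2 scale (limma adjusted p = 0.00683). Its percentiles were 93.5, 93.7 and 90.0 in preps 1, 2 and 3. Without prep 2 the mean was 0.91 and the call ended (limma adjusted p = 0.0604).

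Both dehydrogenases gave ratios on either side of 0. The gene dhs-16 (V) encodes a short-chain dehydrogenase that oxidises the 3-hydroxyl group of sterol intermediates. It was at -0.37, 0.03 and 0.20 in preps 1, 2 and 3, below the median in prep 1 and above it in the others. The mean was -0.05 ± 0.29, with an interval of -0.53 to 0.44, and limma gave an adjusted p of 0.901. The sign of so small a mean turned with array scaling and without prep 1. The interval leaves room for a difference of up to 0.53 log2 units downwards.

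The gene hsd-1 (I) encodes a homologue of 3-beta-hydroxysteroid dehydrogenases that is expressed in the XXX cells. It was the only one of the 6 with 2 probes, which disagreed. The first probe was at -0.20 and -2.60 in preps 1 and 2 and had no value in prep 3. The second was at -0.99, 0.65 and 0.07 in preps 1, 2 and 3. The first minus the second was -3.26 log2 units in prep 2, but 0.79 in prep 1. Averaged per prep, hsd-1 was at -0.59, -0.97 and 0.07, with prep 3 resting on the second probe alone. Its mean of -0.50 ± 0.53 did not pass (interval -1.05 to 0.05, limma adjusted p = 0.181), and it was -0.09 from the second probe only. No direction can be given for hsd-1 from these probes. The related gene hsd-2 was at -0.32, -0.54 and -0.11 and did not pass either (limma adjusted p = 0.313).

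The receptor gene daf-12 (X) had log2 ratios of 0.44, 0.14 and 0.10 in preps 1, 2 and 3. They lay close together and slightly above the median, with prep 1 highest. The mean of 0.23 ± 0.19 did not pass the test (limma adjusted p = 0.481), and its interval was -0.24 to 0.70. The SD of daf-12 was at the 19th percentile of all genes, so its preps were closer to each other than those of most genes. Its percentiles within the arrays were 75.1, 56.7 and 62.4.

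The gene din-1 (II) encodes the DAF-12 co-repressor, a homologue of human SHARP, and is transcribed as long and short isoforms. The value table has 1 probe for it, and which isoforms that probe detects is not given. Its log2 ratios were 0.80, 1.70 and 0.05 in preps 1, 2 and 3. With the hsd-1 probes averaged, din-1 was the most spread of the 6, with an SD of 0.83 at the 94.2 percentile of all genes. Taken singly, the hsd-1 probes had SDs of 1.70 (preps 1 and 2) and 0.832 (all preps), against 0.826 for din-1. Prep 2 was high, prep 1 lower and prep 3 near the median. The mean of 0.85 did not pass (interval 0.19 to 1.51, limma adjusted p = 0.0644). The call changed with the preps used. It passed without prep 1 (mean 0.88, limma adjusted p = 0.0267) and without prep 3 (1.25, 0.00783). It did not pass without prep 2 (mean 0.43, limma adjusted p = 0.354). Without prep 1 it passed although preps 2 and 3 were at 1.70 and 0.05. Because limma takes a gene's spread mainly from all genes, and more so with a prep left out, these passes do not show that din-1 was steady.

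**Figure D2:**
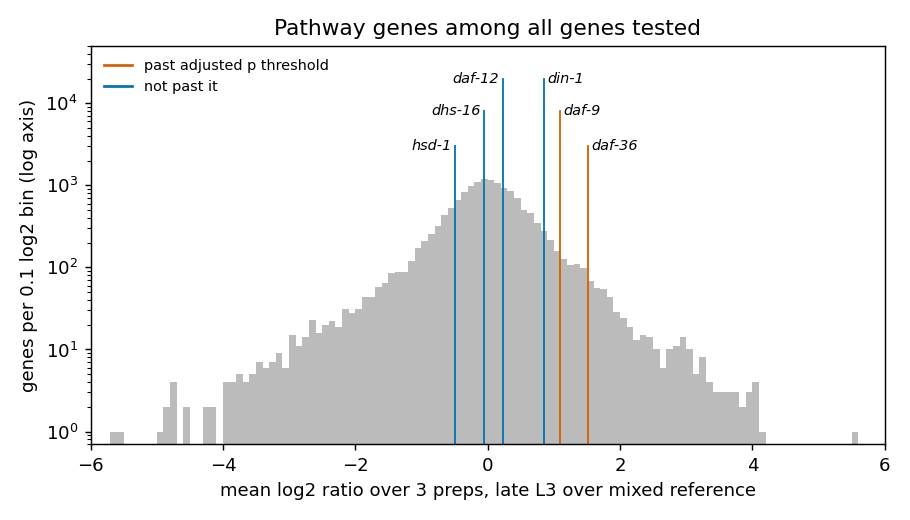
Histogram of the mean log2 ratio over 3 preps for the 15143 genes tested (horizontal axis; vertical log axis, genes per bin), with a line at each pathway gene. The lines of daf-36 at 1.51 and daf-9 at 1.10 stand on the upper shoulder, and those of daf-12 at 0.23 and dhs-16 at -0.05 near the centre.

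Set against each other within an array, the synthesis enzymes daf-36 and daf-9 differed from the receptor in every prep. The log2 ratio of daf-36 exceeded that of daf-12 by 1.04, 1.88 and 0.93 in preps 1, 2 and 3, and that of daf-9 exceeded it by 0.68, 1.35 and 0.58. The ratio of daf-36 exceeded that of daf-9 as well, by 0.35, 0.54 and 0.34. Of the 15 pairs among the 6 genes, 10 had a difference of 1 sign on all arrays. The pairs share genes, and the share over pairs of all genes was not computed. All differences given here are of ratios and not of levels. None of the differences was tested. An exact two-sided sign permutation over 3 arrays cannot go below p = 0.25.

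The prep order of daf-36 and daf-9 followed the spread of the arrays. For both, prep 2 was highest and prep 3 lowest, an order shared by 39.2% of all genes called higher and 19.9% of all genes. When the arrays were scaled to one spread, daf-36 was at 1.33, 1.62 and 1.62 and daf-9 at 1.01, 1.19 and 1.08 in preps 1, 2 and 3. The SDs were then 0.17 for daf-36 and 0.09 for daf-9, against 0.49 and 0.40 without scaling. Under the same scaling din-1 was at 0.72, 1.36 and 0.08, with an SD of 0.64, against 0.83 without it. Prep, array and array date are a single factor here, so these cannot be told apart.

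**Figure D3:**
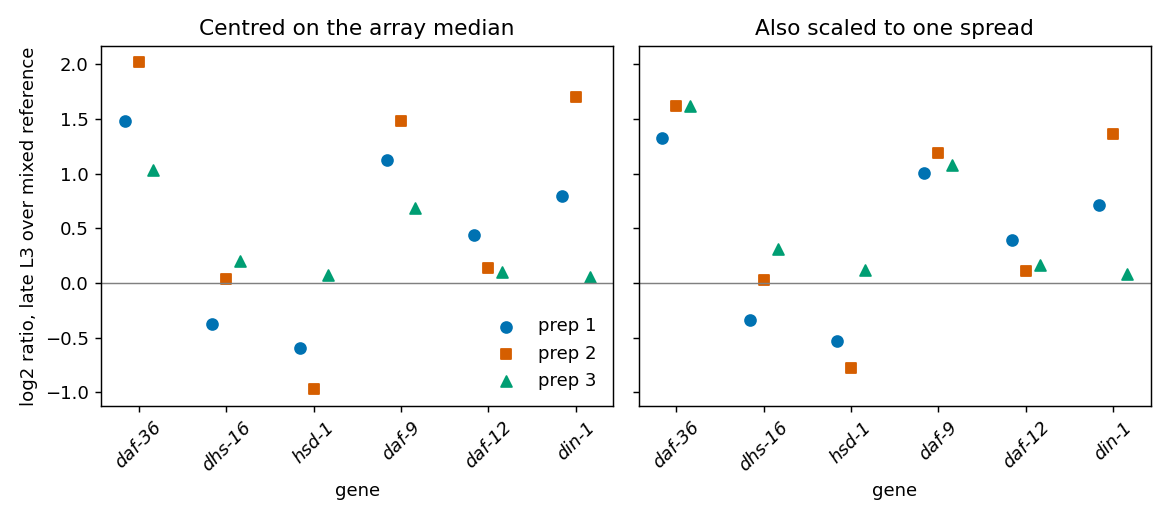
Log2 ratio (vertical axis) of each gene in preps 1, 2 and 3 with arrays centred only (left) and also scaled to one spread (right). The 3 preps of daf-36 and daf-9 draw together on the right, between 1.33 and 1.62 and between 1.01 and 1.19, while din-1 still runs between 0.08 and 1.36.

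Genes that act around the hormone were described from 7 lists with 42 tested genes outside the 6. Of these, 5 were higher and 5 lower, or 11.9% in each direction, which is close to the shares over all genes. Their median was 0.02.

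In sterol supply and hormone synthesis, 1 of 7 tested genes was higher and 1 lower, beside 11.4% and 11.9% of all genes. The Niemann-Pick C1 homologue gene ncr-2, which handles intracellular cholesterol, was at 1.52, 1.25 and 0.29 in preps 1, 2 and 3. It was higher (mean 1.02 ± 0.65, limma adjusted p = 0.0197), but its call ended without prep 1 (0.0591) and without prep 2 (0.140). The steroid sulfatase gene sul-2 was lower at -1.42, -1.18 and -0.93 (mean -1.18 ± 0.24, limma adjusted p = 0.00327), and stayed so without any one prep. Values for the second homologue, ncr-1, were 0.76, 1.50 and 0.11, which did not pass (limma adjusted p = 0.0637). The endocytic receptor gene lrp-1 was far below the median in prep 1, at -1.26, and above it in preps 2 and 3, at 0.82 and 0.40.

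Of the receptors closest in sequence to DAF-12, nhr-8, which is needed for normal cholesterol and hormone levels, was higher at 0.41, 0.77 and 1.30 (mean 0.82 ± 0.45, limma adjusted p = 0.0300). It was lowest in prep 1 and highest in prep 3, unlike daf-36 and daf-9. The nhr-8 call ended without prep 2 (0.113), without prep 3 (0.216) and with arrays scaled to one spread (0.0685). The other, nhr-48, was at 0.04 ± 0.19 and did not pass (limma adjusted p = 0.925). Of 4 tested XXX cell genes, 0 were called, where 23.3% of all genes were called in either direction. Their means ran between -0.42 and 0.50, with eak-4 at 0.50 ± 0.63 (limma adjusted p = 0.204) and eak-6 at 0.44 ± 0.85 (0.332).

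Among developmental timing genes around DAF-12, 3 of 9 were higher and 1 lower, beside 11.4% and 11.9% of all genes. The period homologue gene lin-42 was at 0.68, 1.37 and 1.20 in preps 1, 2 and 3 (mean 1.08 ± 0.36, limma adjusted p = 0.00670). The F-box gene dre-1, which acts with daf-12 in gonad migration, was at 0.27, 1.10 and 1.29 (0.89 ± 0.54, 0.0275). Values of the kinase gene lit-1 were 0.46, 0.97 and 0.92 (0.79 ± 0.28, 0.0262). All of these were lowest in prep 1. The RNA-binding gene lin-41, a let-7 target, was lower at -1.26, -0.52 and -0.74 (-0.84 ± 0.38, 0.0237). Without prep 2, lin-42 (0.0591), dre-1 (0.159) and lit-1 (0.124) lost their calls. Without prep 3 those of dre-1 (0.151), lit-1 (0.125) and lin-41 (0.0559) ended, lin-41 also without prep 1 (0.146), and dre-1 with arrays scaled to one spread (0.0601).

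Called genes in the signalling branches that control hormone synthesis in the dauer decision were counted. Of all genes, 11.4% were called higher and 11.9% lower. The counts are too small to describe a branch as a whole. In the insulin branch 2 of 9 were lower and 0 higher. Of these, the kinase gene akt-1 was at -0.92, -1.22 and -0.84 in preps 1, 2 and 3 (mean -0.996 ± 0.20, limma adjusted p = 0.00738), and its call ended without prep 2 (0.0535). In the TGF-beta branch 1 of 7 was lower, the type II receptor gene daf-4 at -0.89, -0.91 and -0.68. Its mean was -0.83 ± 0.13 (limma adjusted p = 0.0169), and its call ended without prep 2 (0.0763). Next furthest from 0 was daf-1 at -0.37 ± 0.07, which did not pass (limma adjusted p = 0.228). In the cyclic GMP branch 0 of 4 were called, and the furthest from 0 were the channel subunit genes tax-4 at 0.37 ± 0.33 (limma adjusted p = 0.268) and tax-2 at -0.29 ± 0.19 (0.365).

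**Figure D4:**
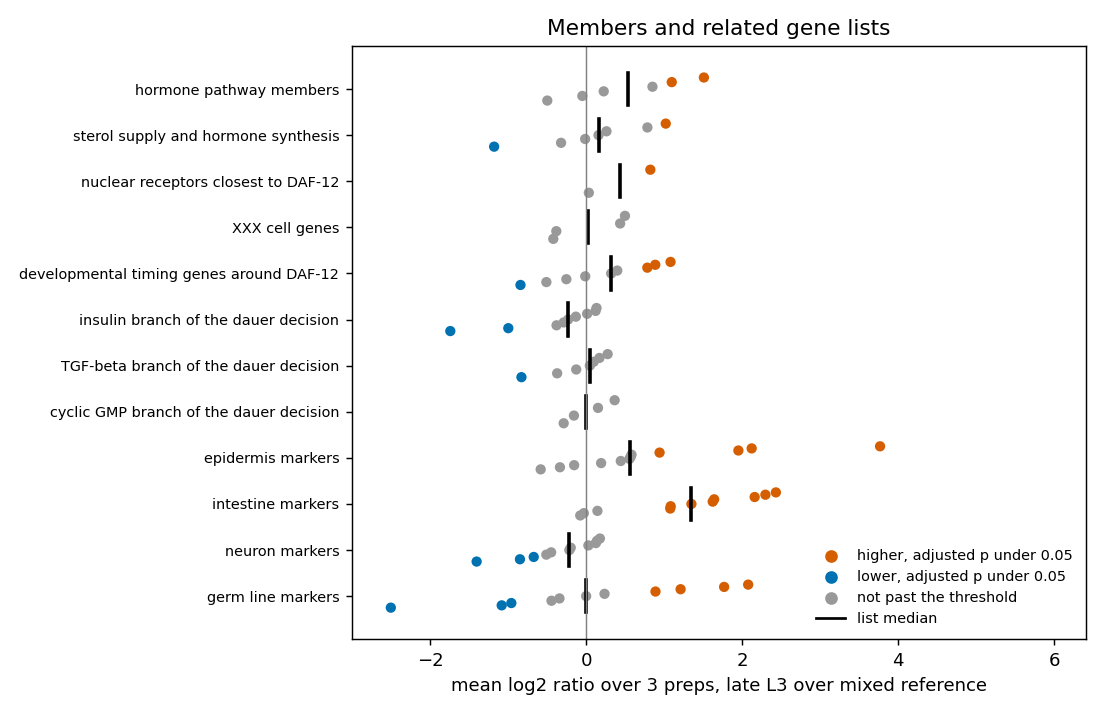
Mean log2 ratio over 3 preps (horizontal axis) of each tested gene, by list, with the list median as a black line; orange and blue points passed the threshold. The 2 called pathway genes are at 1.10 and 1.51, and the intestine markers have the highest list median, 1.35.

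Markers of the intestine and the epidermis, which make the hormone, and of neurons and the germ line were described beside these values. Over all genes, 11.4% were called higher and 11.9% lower. Of 11 tested intestine markers 8 were higher and 0 lower, with list medians of 1.55, 1.52 and 1.03 in preps 1, 2 and 3. Among the higher were vha-6 at 2.43 ± 0.76, pept-1 at 2.30 ± 0.24, act-5 at 2.16 ± 0.33 and ifb-2 at 1.64 ± 0.70. The lowest mean of the list was -0.07, of the GATA factor gene elt-7, which was not called. The log2 ratio of daf-36 minus that list median was -0.07, 0.50 and -0.0021, and 5 of the 11 markers had a higher mean than daf-36. Epidermis markers had 4 of 12 higher and 0 lower, with medians of 0.40, 0.77 and 0.62. The higher ones were dpy-13 at 3.77 ± 0.95, rol-6 at 2.12 ± 0.93, sqt-3 at 1.95 ± 1.20 and nhr-25 at 0.94 ± 0.24. The lowest mean of the list was -0.58, of elt-3, which was below 0 in every prep and not called. The daf-9 ratio exceeded the epidermis median by 0.72, 0.71 and 0.07, and the daf-36 ratio exceeded it by 1.08, 1.25 and 0.42. The daf-9 ratio minus the intestine median was -0.43, -0.03 and -0.35. Neuron markers had 0 of 11 higher and 3 lower, with medians of -0.05, -0.42 and -0.20. The lower ones were sbt-1 at -1.40 ± 0.27, ida-1 at -0.85 ± 0.16 and rgef-1 at -0.67 ± 0.24. Germ line markers had 4 of 11 higher and 3 lower, with medians of 0.18, 0.28 and -0.02. The called ones furthest from 0 were rme-2 at -2.50 ± 0.34, glh-1 at 2.08 ± 0.42, glh-2 at 1.77 ± 0.47 and fbf-2 at 1.21 ± 0.53. Of the marker calls named here, that of rgef-1 ended whichever prep was left out (limma adjusted p between 0.0794 and 0.179). Without prep 2 those of sqt-3 (0.0792), nhr-25 (0.0693) and fbf-2 (0.0617) ended, and without prep 3 that of ida-1 (0.0799). The share of these tissues in the RNA, and its part in the daf-36 and daf-9 values, was not tested.

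Each gene was also placed in its family, without a test. Among 68 cytochrome P450 genes, counting daf-9, 11 were higher and 10 lower, the median was 0.01, and daf-9 ranked 9 from the top. The ends were cyp-35C1 at 3.35 ± 0.31 and cyp-13A1 at -1.68 ± 0.29. Among 238 nuclear receptor genes, counting daf-12, 13 (5.46%) were higher and 18 (7.56%) lower, beside 11.4% and 11.9% of all genes, and daf-12 ranked 72 from the top. Its family ran between nhr-73 at 2.01 ± 1.42 and nhr-260 at -1.74 ± 0.30. Among 24 dhs genes 6 were higher and 3 lower, and dhs-16 ranked 16. The dhs family ran between dhs-28 at 2.31 ± 0.62 and dhs-26 at -2.64 ± 0.74. The members of these families share sequence, so single probes may cross-hybridise.

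**Figure D5:**
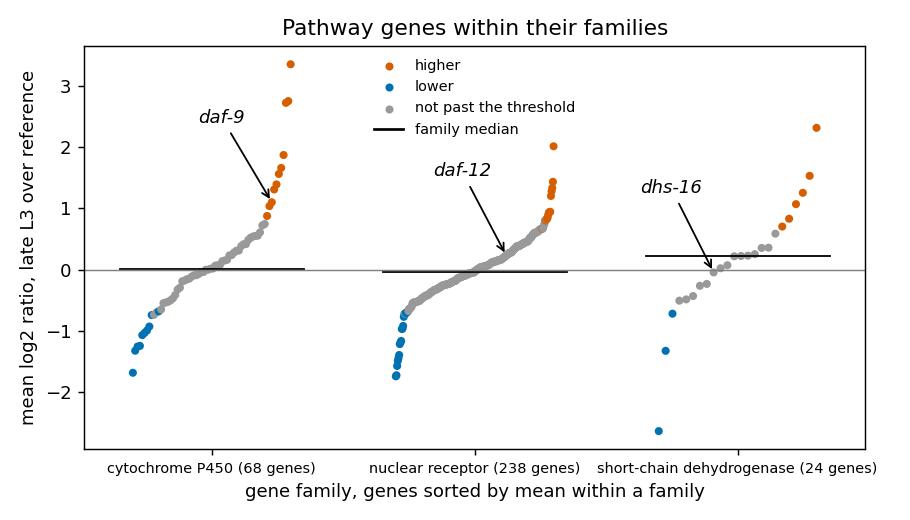
Mean log2 ratio (vertical axis) of every tested gene of 3 families, sorted within each, with the family median as a black line and daf-9, daf-12 and dhs-16 marked by arrows. The daf-9 point, 1.10, lies in the called upper end of its family, while daf-12 at 0.23 and dhs-16 at -0.05 lie in the uncalled middle.

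The genes with the most similar values were found by the root mean square difference over the 3 arrays. With 3 values per gene and 15143 genes, close matches arise readily, and the measure describes these arrays only. For daf-36 they were idpc-7, aldo-1 and dnj-7, at differences of 0.0694, 0.0776 and 0.0798 log2 units. The aldolase gene aldo-1 was at 1.44, 1.93 and 0.94 in preps 1, 2 and 3. For daf-9 they were pcp-5 (0.0627), cif-1 (0.0673) and the actin gene act-2 (0.0737). The receptor gene daf-12 had odr-1 (0.0283), pygo-1 (0.0353) and sre-28 (0.0387). For din-1 they were adbp-2 (0.0918), srd-26 (0.0994) and srbc-30 (0.105), for hsd-1 str-188 (0.0659), str-248 (0.0698) and fbxb-18 (0.0821), and for dhs-16 capg-1 (0.0214), irld-9 (0.0252) and try-13 (0.0358).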

How the data were processed

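The deposited value table holds log2 ratios of the 2 channels for 20000 probes on 3 arrays. The authors' normalization and spot filters are not stated in any source used here. Base 2 follows from the values: taken as powers of 2, 100% of ratios under 0.3 fell on whole thousandths (tolerance 0.01 thousandths). Spot intensities were not used here; the number of arrays limits the precision.

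Probes with 1 gene (15655) were named through the RefSeq gene table of WBcel235, by gene ID for 15569, by accession for 7 and by the older name for 79. Its chromosomes and gene order were also used, but no coordinates. Arrays were centred on their medians, probes of a gene averaged, and the 15143 genes with values on all arrays tested against 0 (limma 3.58.1, R 4.3.3, lmFit with an intercept, eBayes, two-sided, Benjamini-Hochberg, threshold 0.05). The reference's own spread is left out. Fits with a prep left out take a gene's spread mainly from all genes, so their p-values say little about its own spread. The script was tested on simulated data.

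Members and lists were chosen with earlier results of these data known. Named genes are the members, family ends, the 3 closest genes and up to 4 called genes per list with the largest absolute means. Where fewer than 2 genes of a list passed, the 2 with the largest absolute means are named. Others are named for a role or a disagreement, after their values were seen. A gene that the rule names is not reported here. Alternatives covered centring, scaling, probes, missing values, the test, thresholds, a running median over 201 probes, the sign and each prep. Figures used matplotlib 3.10.9 in Python 3.11.15.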

Additional observations from a re-analysis of the deposited data

How the results depend on the processing

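With 13 alternatives beside the turned sign and the left-out preps, daf-36 ran between 1.38 and 1.52 and daf-9 between 0.79 and 1.10, and each kept its call under 12. Both lost it (adjusted p = 0.206 and 0.219, values 1.51 and 1.10 as before) in a one-sample test without shared spread, where 0 of the 6 genes and 0 genes in either direction passed, while 3272 genes had an unadjusted p under 0.05 there, against 5387 in limma. The lowest daf-9 value came from the running median along probe numbers. The co-repressor gene din-1 became called without centring (0.85, adjusted p = 0.0494), with quantile normalization (0.77, 0.0432) and at a threshold of 0.1 (0.85). The small mean of dhs-16 turned to 0.00047 with arrays scaled to one spread, 0.0152 with quantile normalization and 0.0843 with the running median. At a threshold of 0.01, 890 genes were higher and 1001 lower, against 1720 and 1804. Leaving out each prep in turn gave 0.91 to 1.30 for daf-9, 1.26 to 1.75 for daf-36, 0.12 to 0.29 for daf-12, 0.43 to 1.25 for din-1, -0.78 to -0.26 for hsd-1 and -0.17 to 0.12 for dhs-16, with 1 to 3 of the 6 higher, 761 to 1741 of all genes higher and 1002 to 1541 lower, the lowest counts without prep 2. With the sign turned the values were by construction -1.10 for daf-9, -0.23 for daf-12, -1.51 for daf-36, -0.85 for din-1, 0.50 for hsd-1 and 0.0475 for dhs-16, with 0 higher and 2 lower. Where no construction shows it, the cause was not tested. Each probe tested alone gave no value for hsd-1, whose first probe lacks prep 3; the second probe alone was chosen after seeing the data. No paired analysis was possible because there is 1 group.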

Other observations

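The nearest protein-coding neighbours of the 6 genes on the chromosome were looked up after the values were seen. Of 12 neighbours 10 were tested, and their means ran between -0.65 and 0.80. The neighbours of daf-9, ceh-54 and bca-1, were at -0.07 ± 0.30 and -0.65 ± 0.44, and neither passed (limma adjusted p = 0.843 and 0.0731). Next to daf-36, ttr-19 was at -0.09 ± 0.42 (limma adjusted p = 0.813). The 1 neighbour that was called was lagr-1 beside hsd-1, a ceramide synthase gene, at 1.18, 0.83 and 0.39 in preps 1, 2 and 3 (mean 0.80 ± 0.40, limma adjusted p = 0.0305).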
